A study of Mus musculus with 6 samples.

Results

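Of the 6 genes that mark mesothelium, the layer of flat cells covering the outside of the bladder, 1 fell in bladders with Klf5 deleted (Msln), 1 rose (Wt1) and 4 did not pass the test (Muc16, Lrrn4, Bnc1 and Gpm6a), where 1.98% of all genes passed. The 6 genes were taken by symbol from 19938 genes measured on Affymetrix Mouse Gene ST arrays, and each had exactly 1 feature there. The embryos were at stage E14.5, and for each array whole bladders were combined, 2 to a pool. In the Klf5-deleted group (3 pools) the labels give the genotype as Klf5 ∆/∆, a deletion on both alleles of a zinc-finger transcription factor gene of epithelia, and do not name a Cre allele for it. The control group (3 pools) is labelled Klf5+/+ShhGfpCre+, with intact Klf5 and the ShhGfpCre allele, which produces Cre recombinase where Shh is active, as in bladder epithelium. The labels give no litter, sex or strain of the pools and call the tissue both urothelium and whole bladder.

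Mesothelium arises from mesoderm, yet it forms an epithelial sheet with keratins and an apical surface. It covers organs and lines the body cavities, secretes a lubricating film and, in embryos, sends cells into the underlying tissue. Wt1 codes for a zinc-finger transcription factor that marks mesothelium in the embryo and is also made in kidney and gonad. Msln codes for mesothelin, a glycoprotein anchored in the cell membrane, and Muc16 for a large membrane mucin that binds mesothelin. Bnc1 codes for the zinc-finger protein basonuclin 1, known from the basal layer of the epidermis and from germ cells. Lrrn4 codes for a membrane protein with leucine-rich repeats, and Gpm6a for a membrane glycoprotein best known from neurons. None of the 6 genes is made by mesothelium alone, and in RNA of whole bladders fewer cells of a type and less RNA per cell cannot be told apart.

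Values are log2 expression values, and every difference is Klf5-deleted minus control on that scale, tested with limma and called where the p adjusted over all 19938 genes was under 0.05. The 1.98% of all genes that passed were made up of 1.59% falls and 0.386% rises, and in 20.5% the 3 arrays of each group did not overlap (11.8% lower and 8.67% higher in the Klf5-deleted bladders). Arrays centred on their medians gave 116 rises and 273 falls in place of 77 and 318, and arrays centred on housekeeping genes gave 172 and 269; these centrings add 0.0404 and 0.0862 to the difference of every gene. Klf5 itself read 10.12, 10.34 and 10.23 on the Klf5-deleted arrays and 10.84, 10.63 and 10.97 on the control arrays, a difference of -0.59 (SE 0.10, adjusted p = 0.0381 by limma) that passed in 7 of 14 alternative settings, with an adjusted p of 0.0167 to 0.156. Which part of Klf5 its feature reads was not analysed here. Control 2 stood apart in placental transcripts. The mean of 3 such genes was 9.56 there, 8.10 on Klf5-deleted 2 and between 6.30 and 7.17 on the remaining arrays. None of the 3 passed. None of 8 housekeeping genes passed either, with a median difference of -0.00175. With 3 arrays a group the smallest p of an exact permutation test is 0.1, and nothing in the labels says that pools of a group came from separate litters.

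Msln, the gene of mesothelin, was lower in every Klf5-deleted pool. It read 7.30, 7.32 and 7.32 on the Klf5-deleted arrays and 8.77, 8.52 and 8.91 on the control arrays. The groups were separated by a gap of 1.20, and the 3 Klf5-deleted values lay within 0.0212 of each other while the control values spanned 0.389. The means were 7.32 ± 0.01 (SD, n = 3) and 8.73 ± 0.20 (SD, n = 3), which is 2.67-fold lower (log2 difference -1.42, 95% confidence interval -1.65 to -1.18). By limma the adjusted p was 0.0014. It was the 19th smallest p among all genes. The exact permutation test gave p = 0.1, two-sided, the smallest it can give. No detection call was available, so it is not known whether the Klf5-deleted readings stood above background. The 13 urothelial markers measured beside it had a median difference of -1.78, and 8 of them fell, where 1.59% of all genes fell. All 13 were lower over all arrays, but Krt5 was higher without control 2. Their mean level was 8.52 to 8.72 on Klf5-deleted and 10.05 to 10.31 on control arrays. The part of the urothelium in the Msln difference was not tested.

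Wt1 moved the other way. It read 10.06, 10.19 and 10.10 on the Klf5-deleted arrays and 9.45, 9.78 and 9.51 on the control arrays, with control 2 the highest of the controls and still 0.285 below the lowest Klf5-deleted array. The means were 10.12 ± 0.06 (SD, n = 3) and 9.58 ± 0.18 (SD, n = 3). Wt1 was thus 1.45-fold higher (log2 difference 0.54, SE 0.10, 95% confidence interval 0.31 to 0.76). Its adjusted p was 0.0409 by limma and its exact permutation p 0.1. The call rested on all but 1 of the arrays: it passed without control 2 (0.64, adjusted p = 0.0102 by limma) and in none of the other 5 fits that left out 1 array, where the difference was 0.47 to 0.56 and the adjusted p 0.102 to 0.147.

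The non-coding transcript Wt1os, which starts beside Wt1 and runs on the opposite strand, was looked at outside the naming rule. Wt1os read 7.71, 7.88 and 7.68 on Klf5-deleted and 7.47, 7.44 and 7.63 on control arrays, so that every Klf5-deleted value was higher. Its difference of 0.25 (SE 0.08) did not pass, with an adjusted p of 0.249 by limma. Kidney and gonad also make Wt1. None of 15 measured marker genes of these organs passed the test, where 1.98% of all genes passed. Their differences had a median of -0.00973, which housekeeping centring moved to 0.0764, and their mean level was 7.45 to 7.64 on Klf5-deleted and 7.36 to 7.68 on control arrays. The 4 brightest were Sox9, Gata4, Foxl2 and Six2, with differences of -0.05, -0.01, -0.17 and 0.46. The steroid enzyme genes Star and Cyp11a1 and the podocyte gene Nphs1 differed by 0.06, -0.33 and -0.13; the value of Cyp11a1 rested on control 2 and was 0.36 without it. Emx2, a homeobox gene of the urogenital system, had the largest positive difference of this list and was its one member whose groups did not overlap. Emx2 read 7.44, 7.54 and 7.79 on Klf5-deleted and 6.94, 7.23 and 7.05 on control arrays, a difference of 0.52 (SE 0.11, adjusted p = 0.0833 by limma). Over all genes 20.5% did not overlap. The part of kidney or gonad tissue in the Wt1 difference was not tested.

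Bnc1 had the largest positive difference of the 6 genes without passing the threshold. It read 9.40, 9.62 and 9.23 on the Klf5-deleted arrays and 9.02, 8.94 and 8.60 on the control arrays. The groups did not overlap, with a gap of 0.204 between Klf5-deleted 3 and control 1. The means were 9.42 ± 0.20 (SD, n = 3) and 8.85 ± 0.22 (SD, n = 3), and they differed by 0.56 (95% confidence interval 0.24 to 0.89). The adjusted p was 0.11 by limma, and the exact permutation p 0.1. Arrays centred on housekeeping genes gave 0.65 with an adjusted p of 0.0452 by limma, within a range over the alternatives of 0.0452 to 0.289. Krt5 and Trp63, basal epithelial genes of a layer that also makes basonuclin 1, differed by -0.10 and -0.24 and did not pass; without control 2 the difference of Krt5 was 0.31.

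Lrrn4, Gpm6a and Muc16 overlapped between the groups. Lrrn4 read 9.59, 9.64 and 9.59 on the Klf5-deleted arrays and 9.62, 9.16 and 8.86 on the control arrays. Control 1 lay among the Klf5-deleted values and the other controls below them, so that the controls spanned 0.759 and the Klf5-deleted arrays 0.0532. The difference in Lrrn4 was 0.39 (SE 0.17, adjusted p = 0.358 by limma); it was 0.22 without control 3 and 0.60 without control 1.

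Gpm6a read 8.849, 9.003 and 8.633 on the Klf5-deleted arrays and 8.52, 8.71 and 8.16 on the control arrays. Control 2 lay above Klf5-deleted 3, and control 3 was the lowest of all. The difference in Gpm6a was 0.36 (SE 0.15, adjusted p = 0.343 by limma), or 0.21 without control 3. Neurons also make Gpm6a: the mean of 10 neuron and glia genes was 8.27 to 8.65 on Klf5-deleted and 7.94 to 8.79 on control arrays, with control 2 the highest and control 3 the lowest, the order that Gpm6a had among the controls. Among the Klf5-deleted arrays the order differed: the neuron and glia mean was highest on Klf5-deleted 3 (8.65), where Gpm6a was lowest. None of these 10 genes passed, where 1.98% of all genes did. Of the 10 genes 8 were higher and 2 lower, and Stmn2, Nefl, Gap43 and Fabp7 differed by 0.27, 0.22, 0.27 and -0.20. Their median difference was 0.20 over all arrays, 0.44 without control 2 and 0.02 without control 3. The part of nerve tissue in the Gpm6a values was not tested.

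Muc16, the gene of the mucin that binds mesothelin, did not share the difference of Msln. It read 7.28, 7.10 and 7.12 on the Klf5-deleted arrays and 7.18, 7.02 and 6.90 on the control arrays. The values covered 0.376 in all, the narrowest span of the 6 genes, and control 1 lay above 2 of the Klf5-deleted arrays. The group means differed by 0.14 (95% confidence interval -0.08 to 0.35, adjusted p = 0.573 by limma); the difference was 0.07 without control 3, 0.08 without Klf5-deleted 1 and 0.21 without control 1. The annotation ties the Muc16 feature to 1 cDNA, and which part of this long gene it reads was not analysed. All readings of Muc16 lay below the lowest reading of Msln (7.30), and whether they stood above background is not known.

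**Figure D1:**
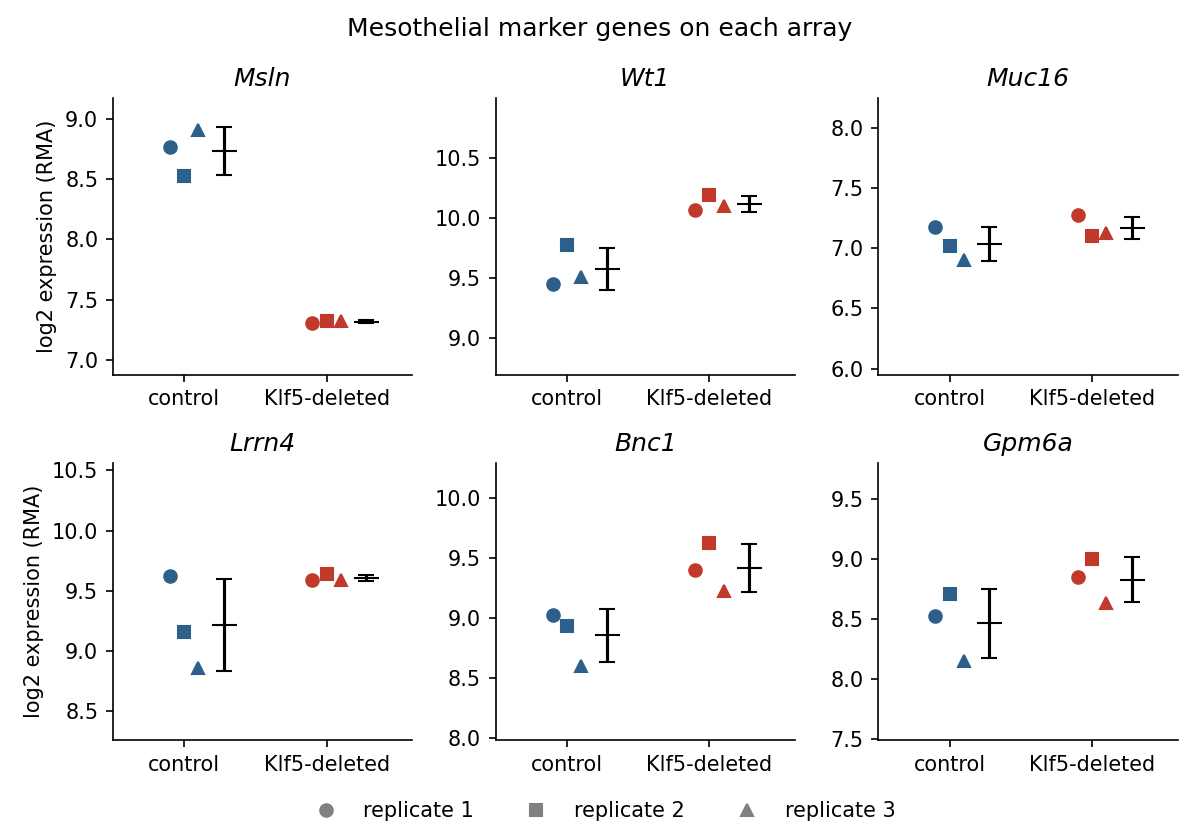
Log2 expression (vertical axes, each covering the same range of log2 units) of the 6 marker genes on every array; points are arrays, shaped by replicate number, and bars are means ± SD over 3 arrays. Msln was lower and Wt1 and Bnc1 were higher on all 3 Klf5-deleted arrays, while Muc16, Lrrn4 and Gpm6a overlapped.

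Set against the whole table, the groups did not overlap in 3 of the 6 genes, 1 lower (Msln) and 2 higher (Wt1 and Bnc1), where 20.5% of all genes did not overlap. All 5 genes other than Msln were higher on average in the Klf5-deleted bladders, also in each fit that left out 1 array and with either centring of the arrays. Over all genes 46.5% were higher. The median difference of the 6 genes was 0.38, against -0.00993 over all genes.

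The array order was shared by several of the 5 genes. Klf5-deleted 2 gave the highest reading of Wt1, Lrrn4, Bnc1 and Gpm6a, and control 3 the lowest reading of Muc16, Lrrn4, Bnc1 and Gpm6a. The mean level of the 5 genes was 9.04, 9.11 and 8.93 on the Klf5-deleted arrays and 8.76, 8.72 and 8.40 on the control arrays. The 5 genes were set apart because Msln moved the other way, so the separation of these means is a description. The mean level of all 6 genes overlapped, at 8.75, 8.81 and 8.67 on the Klf5-deleted and 8.76, 8.69 and 8.49 on the control arrays. Control 3 was the lowest for the 5 genes and the highest for Msln.

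Taking Msln minus the mean of the other 5 genes within each array removes any shift that an array gives to all genes. This quantity was -1.73, -1.79 and -1.61 on the Klf5-deleted arrays and 0.01, -0.20 and 0.51 on the control arrays. The difference between the groups was -1.82, which is given with no test, since Msln was set against the others after its direction was seen. Msln minus Wt1 alone differed by -1.95, Msln minus Bnc1 by -1.98, and Msln minus Muc16, the partner of mesothelin, by -1.55. Against Lrrn4 and Gpm6a it was -1.81 and -1.78.

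The genes whose readings over the 6 arrays lay closest to those of Msln, after each gene was centred on its own mean, were Lypd2, Tmprss13 and Grhl3. Their root mean square distances from Msln were 0.0813, 0.0835 and 0.0907 log2 units. Lypd2 codes for a small Ly6-type surface protein, Tmprss13 for a membrane serine protease and Grhl3 for a transcription factor of the epithelial barrier. Grhl3 read 9.14, 9.37 and 9.33 on the Klf5-deleted and 10.71, 10.34 and 10.93 on the control arrays, so that control 3 was highest and control 2 lowest among the controls, as in Msln. Lypd2 had the same order among the controls, at 9.12, 8.61 and 9.18, whereas in Tmprss13 control 1 was highest, at 8.39. Because these genes were picked for their closeness to Msln on these arrays, a similar order follows from that choice.

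Bnc1 was the only other of the 6 genes whose readings spanned at least 1 log2 unit. Its closest profiles were Rgs7, a regulator of G protein signalling, Lrrc4c, a synaptic adhesion gene, and Vamp4, a gene of vesicle fusion, at distances of 0.0713, 0.0856 and 0.0903. Rgs7, Lrrc4c and Vamp4 differed by 0.45, 0.45 and 0.46, and none of them passed, with adjusted p of 0.153, 0.183 and 0.0635 by limma. None of the other markers, and none of the 14 further mesothelial genes measured, was among the closest profiles of Msln or Bnc1. Only 3 genes were kept for each, and the other markers had moved the other way from Msln. Their absence was therefore likely from the outset, and nothing is concluded from it. These distances describe 6 arrays and carry no test.

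**Figure D2:**
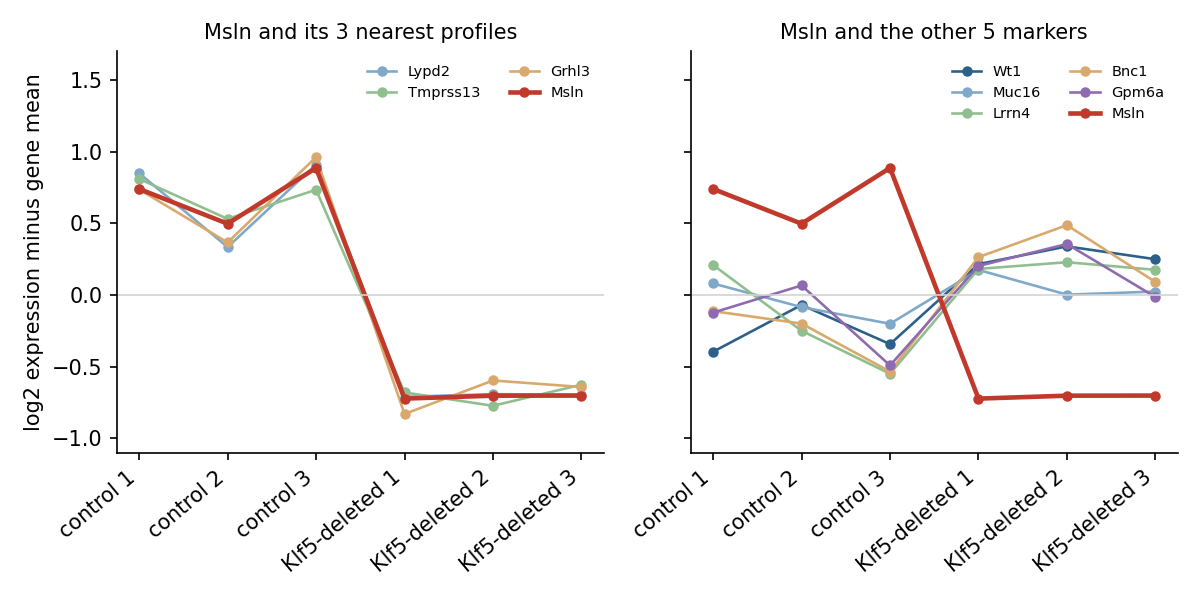
Log2 expression minus the gene's own mean over 6 arrays (vertical axis) for each array (horizontal axis); lines only join the points of a gene. Msln lies with Lypd2, Tmprss13 and Grhl3, which are high on controls, while the other 5 marker genes have lower means on the controls than on the Klf5-deleted arrays.

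Other genes known from mesothelium also held a member that rose and one that fell. Of 14 measured members of this list 1 rose (Aldh1a2), 1 fell (Anxa8) and 12 did not pass. Over all genes 0.386% rose and 1.59% fell. In the list 7 were higher and 7 lower, with a median of 0.03. Aldh1a2, whose enzyme makes retinoic acid, read 11.87, 11.99 and 11.68 on Klf5-deleted and 11.28, 11.19 and 11.18 on control arrays. Its difference was 0.63 (SE 0.09, adjusted p = 0.0173 by limma), and the call was lost on leaving out control 1, control 3, Klf5-deleted 1 or Klf5-deleted 2 (adjusted p 0.0552 to 0.0909). Anxa8, an annexin that binds membranes in the presence of calcium, read 6.97, 6.92 and 6.97 on Klf5-deleted and 8.22, 7.85 and 8.14 on control arrays. Its difference of -1.12 (SE 0.10, adjusted p = 0.00275 by limma) passed in all 13 alternative settings that tested it. As in Msln, the Klf5-deleted readings of Anxa8 lay close together, and whether they stood above background is not known.

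Of the mesothelial genes that did not pass, Tbx18 had the largest positive difference, a choice made after its values were seen. Tbx18 codes for a T-box transcription factor of the ureter mesenchyme and the epicardium. It read 10.31, 10.04 and 10.22 on Klf5-deleted and 9.77, 9.33 and 9.22 on control arrays, a difference of 0.75 (SE 0.15, adjusted p = 0.0568 by limma), and it passed in 6 of 14 alternatives, with an adjusted p of 0.0181 to 0.205. Upk3b, a uroplakin relative made by mesothelium, read 11.46, 11.30 and 11.20 on Klf5-deleted and 11.92, 11.51 and 11.48 on control arrays. The groups of Upk3b did not overlap, and its difference of -0.32 (SE 0.13) did not pass, with an adjusted p of 0.329 by limma. Among the brightest other members, the sulfatase gene Sulf1 differed by 0.27, the matrix protein gene Efemp1 by 0.51 and the transcription factor gene Tcf21 by -0.01.

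Prg4, the gene of a lubricating proteoglycan of joints and mesothelium, was at 7.78 on control 2 and between 5.75 and 6.41 elsewhere, so that its difference of -0.33 (SE 0.47) rested on that array. Simple keratins, which mesothelium shares with urothelium, all fell, where 1.59% of all genes fell. Krt7, Krt8, Krt18 and Krt19 differed by -1.51, -1.77, -1.52 and -1.46, and their mean level was 9.87 to 10.09 on Klf5-deleted and 11.38 to 11.62 on control arrays. Which cells gave these keratin readings was not tested.

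**Figure D3:**
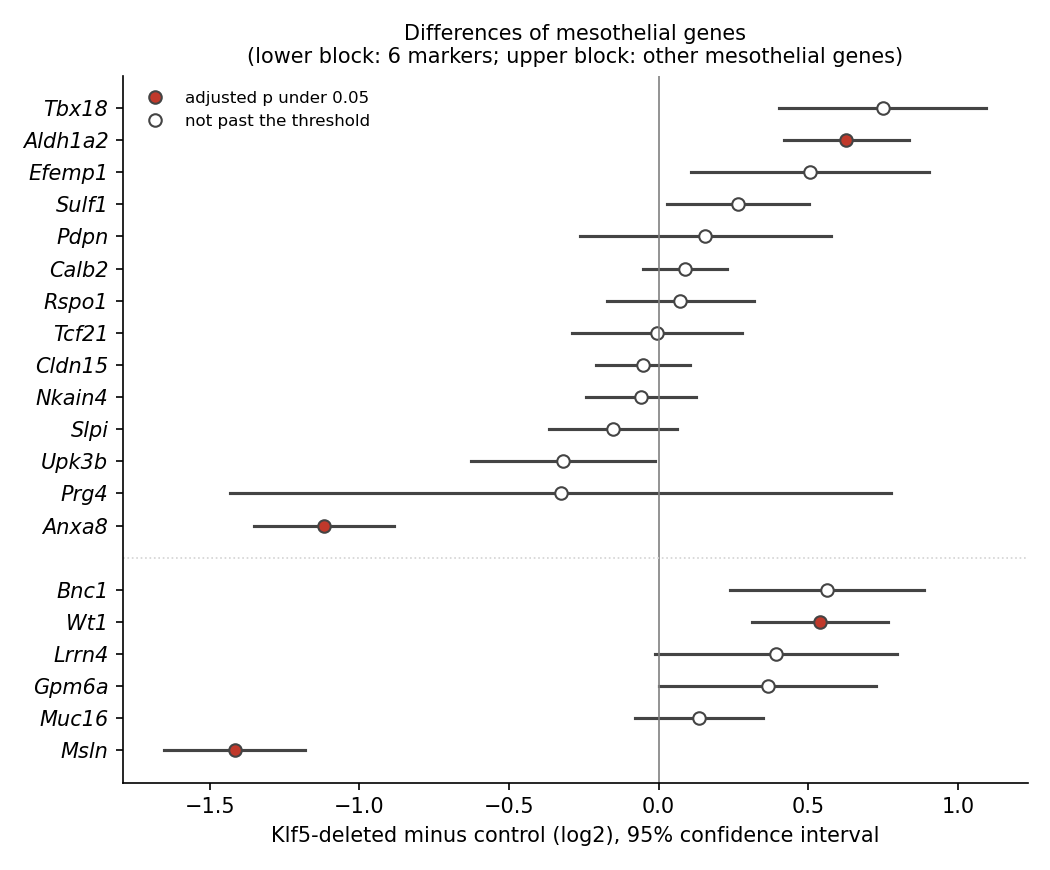
Difference between Klf5-deleted and control bladders (log2, horizontal axis) with 95% confidence intervals from limma for the 6 marker genes and 14 other mesothelial genes; filled points passed an adjusted p of 0.05. Msln and Anxa8 lie at -1.42 and -1.12, and Wt1 and Aldh1a2 at 0.54 and 0.63.

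None of 10 measured relatives of the 6 genes passed the test, where 1.98% of all genes passed. The stereocilin-type relatives of mesothelin, Mslnl, Strc and Otoa, differed by -0.11, -0.14 and -0.21, and the membrane mucin genes Muc1 and Muc4 by -0.21 and -0.03. The readings of these genes ran from 6.23 to 7.16, and whether they stood above background is not known. Bnc2, the paralog of Bnc1, read 11.42, 11.36 and 11.48 on Klf5-deleted and 11.27, 11.22 and 11.29 on control arrays, with 0.16 between the means (SE 0.06, adjusted p = 0.301 by limma). Gpm6b, the paralog of Gpm6a, was higher by 0.17 (SE 0.06, adjusted p = 0.27 by limma), also without overlap of the groups.

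Among the paralogs of Lrrn4, Lrrn2 differed by -0.23 and Lrrn3 by 0.34, while Lrrn1 was 2.90-fold higher on average without passing. Lrrn1 read 10.29, 9.97 and 11.16 on Klf5-deleted and 8.55, 9.52 and 8.73 on control arrays. Control 2 was the highest control and Klf5-deleted 3 the highest array. The difference in Lrrn1 was 1.54 (SE 0.35, adjusted p = 0.086 by limma), and it passed when control 2 was left out (1.83, adjusted p = 0.0371 by limma) and with arrays centred on housekeeping genes (1.62, adjusted p = 0.0452 by limma), within a range over the alternatives of 0.0371 to 0.256.

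Of 10 measured genes described as targets of Wt1, Aldh1a2 rose and 9 did not pass, where 1.98% of all genes passed. The median difference was -0.00981, and became 0.0306 under median and 0.0764 under housekeeping centring, so it has no settled sign. Pdgfra, a growth factor receptor gene of mesenchyme, had a difference of 0.28 (SE 0.07, adjusted p = 0.13 by limma), and its groups did not overlap. Snai2 differed by -0.20, Podxl by 0.13 and Nes by 0.09. Itga4, an integrin gene, and Wnt4 read lower on all 3 Klf5-deleted arrays, with differences of -0.50 and -0.69 that did not pass.

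Markers of the other tissues of the bladder wall had no member past the threshold apart from the urothelial list. Over all genes 1.98% passed. The 5 smooth muscle genes had a median difference of -0.31. Acta2, Cnn1, Myh11 and Tagln differed by -0.08, -0.26, -0.36 and -0.47, and in these 4 genes the groups did not overlap. The groups did not overlap in 20.5% of all genes, with 11.8% lower in the Klf5-deleted bladders. The 5 mesenchymal genes had a median of -0.09, the 3 endothelial genes -0.03 and the 3 leukocyte genes -0.15. Under housekeeping centring these 4 medians were -0.23, -0.00024, 0.05 and -0.07. Vim and Col1a1, which mark the connective tissue that mesothelium overlies, differed by -0.09 and -0.05. In the urothelial list 8 of 13 genes fell and none rose. They were the uroplakin genes Upk1a, Upk1b, Upk2 and Upk3a, the surface antigen gene Psca, the sorting nexin gene Snx31, and the transcription factor genes Grhl3 and Pparg. The list ran from -0.10 (Krt5) to -3.19 (Upk2), with Gata3, Krt20, Trp63 and Foxa1 at -0.13, -0.21, -0.24 and -0.89 among those that did not pass. Grhl3, at -1.38, was also among the closest profiles of Msln (-1.42) on these same arrays, so the closeness of their differences follows from that choice.

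**Figure D4:**
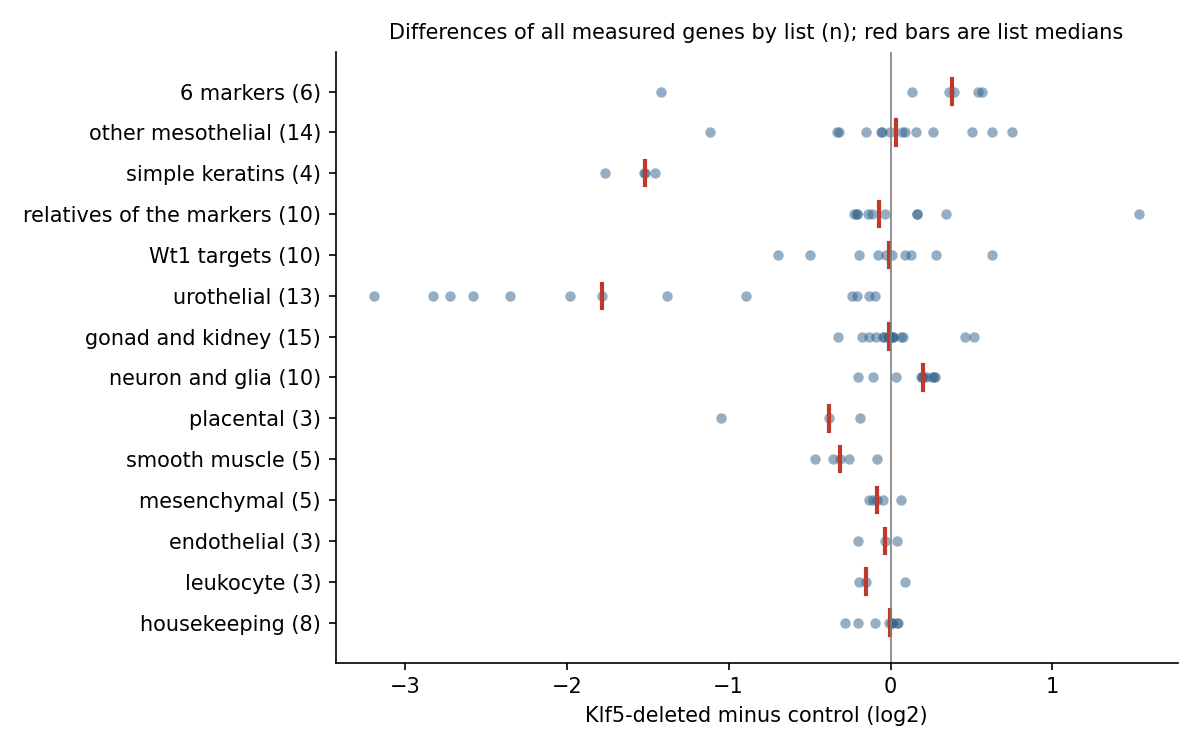
Difference between Klf5-deleted and control bladders (log2, horizontal axis) of every measured gene in 14 lists (rows, number of genes in brackets); points are genes and red bars list medians. The medians of the urothelial genes and simple keratins lie at -1.78 and -1.52, and 5 of the 6 mesothelial markers lie above 0.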

How the data were processed

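Per the submitters' processing notes the authors made the deposited log2 expression values with RMA, a method that subtracts background, equalises the array distributions and combines the probes of a feature. No source used here states its version, the genome build or the probe annotation. The log2 scale was inferred from the values, 3.24 to 14.6 over 35557 features and 6 arrays. Array medians were 7.68 to 7.80. Without scanner files no background call, other background correction or slide block could be tried; RMA compresses differences of dim features, and the number of arrays limits the precision.

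Features with a single gene symbol in GEO's platform annotation (21789) were kept, and the feature with the highest mean stood for a gene, which left 19938 genes. No feature with several symbols (1621) or none (12147) was named. Of the 19938 genes, 19856 matched RefSeq (GRCm38.p6) by Entrez identifier; no coordinates or sequences are printed.

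Groups were compared with limma 3.58.1 in R 4.3.3 (lmFit, eBayes, two-sided, Benjamini-Hochberg over all genes). In 20 simulated comparisons of 19938 genes, 97.3% of 2-fold and 66.3% of 1.41-fold changes were recovered, and 5.05% of calls were unchanged genes. The 6 genes and the lists were chosen with earlier results of these data known. Named genes were the 6 markers, the genes of each list past the threshold, up to 4 more per list by mean level, and the 3 closest profiles of markers that span at least 1 log2 unit; Tbx18, Prg4, Wt1os and other list members named beyond this were picked with their values in view. The groups share replicate numbers, which are not said to mark litters or days, so the main test did not take them as pairs. Deviations of same-numbered arrays correlated at 0.00915, 0.0313 and 0.0787 across genes. Those of differently numbered arrays correlated at -0.0533 to 0.0110. These values do not decide whether the numbers mark pairs, and a fit with a replicate block is given as an alternative. The alternatives were 2 centrings of the arrays, another variance model, array weights, brighter genes only, 2 ways of handling several features, a replicate block and leaving out each array.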

Additional observations from a re-analysis of the deposited data

How the results depend on the processing

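The sign of each of the 6 marker differences held in every alternative that tested the gene. Msln passed the threshold in all 13 that tested it, and Muc16, Lrrn4 and Gpm6a passed in none. Restricting the test to the brighter genes left Msln and Muc16 out, so 1 marker passed there (Wt1), with 239 of 9969 genes called, against 395 of 19938. With a replicate block the call of Wt1 was lost (0.54, adjusted p = 0.0749 by limma), which left 1 marker (Msln), 1 other mesothelial gene (Anxa8) and 110 genes in all. Arrays centred on housekeeping genes brought Bnc1 past the threshold (0.65). When 1 array was left out, the genes past the threshold numbered 141 to 349, the markers 1 to 2 and the other mesothelial genes 1 to 2. The differences were then -1.52 to -1.33 for Msln, 0.47 to 0.64 for Wt1, 0.07 to 0.21 for Muc16, 0.22 to 0.60 for Lrrn4, 0.44 to 0.66 for Bnc1 and 0.21 to 0.49 for Gpm6a. Leaving out an array or adding the block leaves fewer residual degrees of freedom. Why calls were lost was not tested. Of the 9 housekeeping genes 8 were measured, and the centring on them rested on Ywhaz with B2m or Pgk1. Without control 2 the same markers, Msln and Wt1, passed; without control 3 Msln passed alone, and the median difference of the 6 genes was 0.43 and 0.21.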

Other observations

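Control 2, the array with the highest placental readings, also gave the highest readings of several genes of other lists. Cyp11a1, the gene of the first enzyme of steroid synthesis, which placenta also makes, was at 7.64 on control 2 and between 5.48 and 5.98 elsewhere. Krt5, a keratin gene of basal epithelial cells, was at 11.37 there, against 9.85 to 10.49. Pax8, a transcription factor gene of kidney and nephric duct, was at 8.11, against 7.41 to 7.68. These genes were picked after their values were seen.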
